A study of Mus musculus with 7 samples.

Results

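Integrins are the adhesion receptors with which leukocytes and microglia hold on to vessel walls, matrix, complement-coated particles and dying cells. The chains described here are 10 integrin genes of myeloid cells (Itgam, Itgb2, Itgax, Itgal, Itga4, Itgb1, Itgb5, Itgav, Itga6 and Itgb7), chosen by name and found by the symbol in the gene identifier. These 10 symbols took 11 of the 50686 rows deposited for each library. The 11th row carried the symbol Itgam but is named Gm49368 in a later annotation, and was kept apart.

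The libraries came from lipid-rich microglia of C57BL/6 male mice with no drug treatment, either Young (3 to 4 months, n = 4) or Old (21 to 22 months, n = 3), with 1 library per mouse. All mice of both groups had undergone transient occlusion of the middle cerebral artery, and microglia were taken 4 days later, so there was no library from uninjured brain. Forebrain cells were freed with papain, cleared of myelin and sorted by FACS for CD11b, low CD45 and Bodipy, a dye of neutral lipids. CD11b is the protein product of Itgam. The cells were therefore gated on one of the 10 chains, and its RNA level was measured among cells that had passed that gate.

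An integrin is a pair of 1 α chain and 1 β chain, and a chain can reach the cell surface only with a partner. Itgb2 (CD18) makes the β2 integrins of leukocytes: with Itgam it forms complement receptor 3, with Itgax (CD11c) complement receptor 4, and with Itgal (CD11a) the receptor LFA-1. Itgb1 pairs with Itga4 for binding to Vcam1 and fibronectin, and with Itga6 for binding to laminin. Itgav with Itgb5 binds vitronectin and the bridging protein Mfge8, and Itgb7 with Itga4 binds Madcam1. In resting microglia Itgam, Itgb2 and Itgb5 are well known surface genes, whereas Itgax is used as a marker of activated microglia and of dendritic cells.

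Expected counts, the read numbers that RSEM assigns to each gene, summed to 48309150 in young mouse 14C, 45379786 in 18C, 53002386 in 23C and 50659118 in 29C. They summed to 36574083 in old mouse 2posI, 42931779 in 3posI and 46133564 in 4posI. Values compared between libraries are CPM (counts scaled to a common sum over the genes tested, after TMM scaling). Levels compared between genes are TPM, transcript shares scaled per length and to a common sum. The share of counts in annotated rRNA genes was 3.52 to 4.25% in young mice and 1.62 to 2.84% in old mice, and its part in the results was not tested.

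Old mouse 3posI stood apart from the rest, and young mouse 23C from the other young mice. Microglia markers (11 genes, led by Csf1r) summed to 8369 CPM in 3posI and to 14510 to 23890 CPM in the other 6 libraries. The lowest of these 6 was 23C, where each of these markers but Fcrls was lower than in the other young mice. Csf1r was at 3513 CPM in 23C against 5200 to 6338, and P2ry12 at 441 against 1147 to 1767. Endothelial and pericyte markers, given at the end, had their highest sums in 23C, at 135 and 91.4 CPM. Monocyte markers (10 genes, led by Fn1) summed to 3364 CPM in 3posI and to 209.9 to 555 CPM elsewhere, and among them Ccr2, the chemokine receptor of inflammatory monocytes, was at 231 CPM in 3posI and at most at 19.3 CPM elsewhere. Border macrophage markers (8 genes, led by Stab1) summed to 2399 CPM in 3posI and to 805 to 1418 CPM in the rest. Dendritic cell markers (8 genes, led by Ccr7) summed to 67.3 CPM in 3posI, to 14.8 and 15.3 CPM in the other old mice and to 6.53 to 10.3 CPM in young mice. T cell markers (10 genes, led by Cd4) summed to 3.14 to 15.8 CPM in young mice and to 8.01 to 15.9 CPM in old mice, with the highest sum in 3posI. Cd4 reached 10.3 CPM and Cd28 5.55 CPM, both with overlap between the ages. Cd8a, Cd8b1, Lck, Cd2 and Trac lay above all young mice in every old mouse (8.67% of all genes tested), at no more than 1.01 CPM. All of these but Lck passed the filter on low counts, described at the end, only through old mice, which largely fixed this gap. Cd3e, Cd3d and Cd3g reached at most 0.562 CPM, in 3posI. Neutrophil markers (10 genes, led by Csf3r) summed to 189 to 441 CPM in young mice and to 285 to 356 CPM in old mice, of which 3posI was the highest. Mmp8 at 59.9 CPM, Mmp9 at 20.1 CPM and Cxcr2 at 7.95 CPM were higher in 3posI than in any other library, as was S100a9 at 26.7 CPM. Csf3r was lowest in 3posI, at 170.5 CPM, and S100a8, Retnlg, Camp and Ngp were lower there than in young mouse 29C. Ly6g, which defines neutrophils, reached at most 0.311 CPM in any library. P2ry12, Tmem119 and Sall1, which define microglia, were present in every library, the lowest value being 48.0 CPM for Sall1 in 3posI. Fewer cells of a type and less RNA per cell cannot be told apart in such bulk libraries. None of the 10 chains is in a marker list, but Fn1 is also listed as an integrin ligand, and Itgae and Itga2b also as integrin chains.

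Ordered by mean TPM over the 7 libraries, Itgb5 stood first at 424 ± 85.5 (SD, n = 7), followed by Itgb2 at 359 ± 27.6 and Itgam at 263 ± 114. Itgb1 was at 118 ± 13.5 TPM, Itgav at 87.4 ± 16.2 and Itga6 at 77.3 ± 15.5. Then came Itgax at 11.3 ± 3.98 TPM, Itgb7 at 4.71 ± 9.02, Itgal at 3.43 ± 2.66 and Itga4 at 2.22 ± 2.01. The place of Itgb7 rested on 3posI, where it was at 25.0 TPM. Without that library Itgb7 was the lowest of the 10 at 1.33 ± 1.30 TPM (SD, n = 6), below Itgal at 2.43 ± 0.393 and Itga4 at 1.52 ± 0.838, and the first 7 chains kept their order. Only between Itga6 and Itgax did neighbours in this order have ranges that did not overlap, with every Itga6 value at or above 55.4 TPM and every Itgax value at or below 16.3 TPM. The sorted cells thus held 6 chains of high level and 4 of low level, and no neighbours within either set differed beyond their spread, although Itgam exceeded Itgb1 in each of the 7 libraries.

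**Figure D1:**
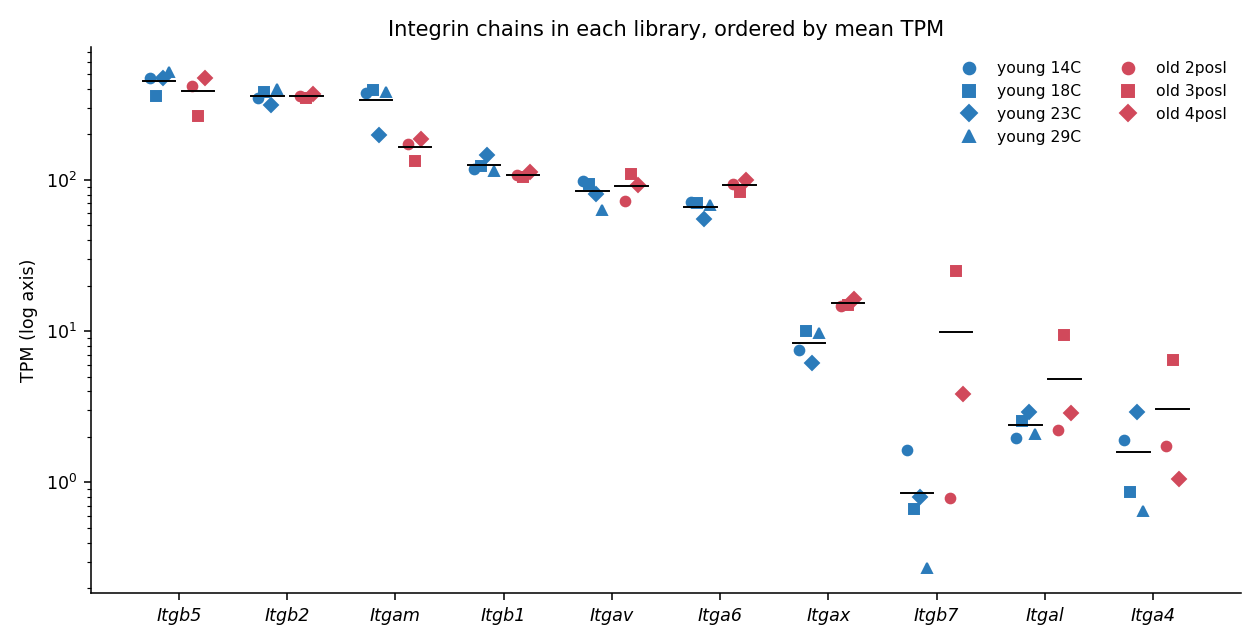
TPM of the 10 integrin chains in each library on a log axis, young mice in blue and old mice in red, with a line at each group mean. The first 6 chains lie above 55 TPM in all libraries, the old values of Itgax lie above all young ones, and the square of old mouse 3posI stands far above the other points for Itgb7, Itgal and Itga4.

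None of the 10 chains passed the threshold between old and young mice in edgeR's quasi-likelihood test (Benjamini-Hochberg adjusted p under 0.05 over all genes tested), against 0.803% of the 17559 genes tested (141 genes; 0.57% higher and 0.233% lower in old mice). At an unadjusted p under 0.05 there were 6 of 10 (Itgax, Itgb7, Itga6, Itgal, Itgav and Itga4), against 18.9% of all genes. DESeq2, run on the same counts, called 3 of 10 (Itgax, Itga6 and Itgb7), against 9.07% of the 15431 genes to which it gave an adjusted p (1399 genes). The CPM of old and young mice did not overlap for 2 of 10 chains, Itgax and Itga6, both higher in old mice. Over all genes tested this share was 17.7%, with 8.67% higher and 9.07% lower in old mice. For 7 of 10 chains the log2 fold change was above 0, against 48.8% of all genes, and the median over the 10 was 0.49, against -0.01 over all genes tested. Without 3posI the chains at an unadjusted p under 0.05 were 2 of 10, Itgax and Itga6, against 17.6% of all genes, and the median was 0.25.

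**Figure D2:**
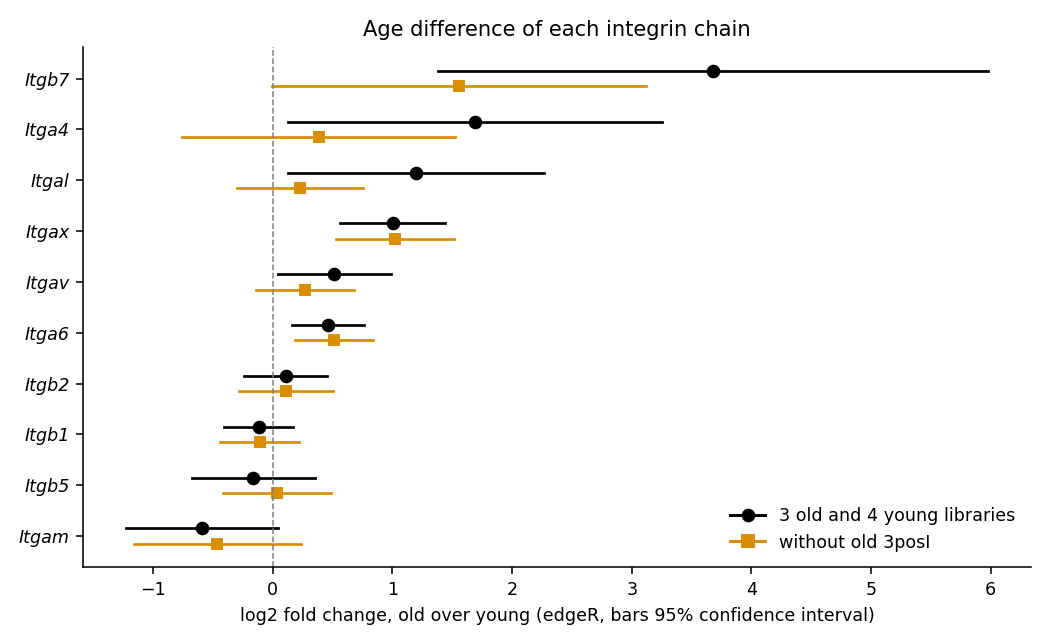
Log2 fold change of each integrin chain, old over young mice, with its 95% confidence interval from edgeR, in all libraries (black) and without old mouse 3posI (orange). Itgax and Itga6 keep their values without 3posI, at 1.02 and 0.51, whereas Itgb7, Itga4, Itgal and Itgav move towards 0.

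Itgb2, the common β chain of the leukocyte integrins (chromosome 10, 77530252 to 77565708, GRCm38), was at 700.2 CPM in young mouse 14C, 756 in 18C, 630.0 in 23C and 869 in 29C, and at 846 in old mouse 2posI, 789.6 in 3posI and 752 in 4posI. The groups overlapped. Its log2 fold change was 0.11 ± 0.15 (SE) in edgeR (95% confidence interval -0.24 to 0.45, adjusted p = 0.743), and its TPM averaged 359 in both groups.

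Itgam, the α chain of complement receptor 3 (ENSMUSG00000030786, chromosome 7, 128062640 to 128118491), was at 931 CPM in young mouse 14C, 949.8 in 18C, 455 in 23C and 1027 in 29C. In old mice it was at 639 CPM in 2posI, 458 in 3posI and 580.4 in 4posI. Young mouse 23C lay below all 3 old mice, and the other young mice lay above them. The summed microglia markers were also lower in 23C, at 14510 CPM against 19020 to 23890 CPM in the other young mice. Their part in the values of Itgam was not tested. The mean of Itgam was 841 ± 261 CPM (SD, n = 4) in young mice and 559 ± 92.4 CPM (SD, n = 3) in old mice, a log2 fold change of -0.59 ± 0.28 (SE) in edgeR (interval -1.22 to 0.05, adjusted p = 0.298). Without 23C it was -0.79 (adjusted p = 0.109, edgeR). In TPM, Itgam was at 373, 393, 199 and 381 in young mice 14C, 18C, 23C and 29C, and at 174, 134 and 186 in old mice 2posI, 3posI and 4posI. On this scale every old mouse lay below every young one, as was the case for 11.2% of all genes tested. The mean TPM was 337 ± 91.8 (SD, n = 4) in young mice and 165 ± 27.0 (SD, n = 3) in old mice. A two-sided exact permutation test gave p = 0.0571 (35 arrangements, smallest possible p 0.0286). TPM takes account of the length of the transcripts counted and CPM does not, and the lengths assigned to Itgam differed between the ages, as given below. With these lengths as an offset in edgeR the log2 fold change of Itgam was -0.94 (adjusted p = 0.118).

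The second row with the symbol Itgam, Gm49368 (ENSMUSG00000108596, chromosome 7, 128062683 to 128128160), lies on the same strand and shares 55809 bases with Itgam. It received 88 to 154 counts per library, against 17919 to 47755 for Itgam, and reads of the shared exons could have been assigned to either gene. With both rows summed, the log2 fold change of Itgam was -0.59.

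Itgax, the α chain of complement receptor 4 (ENSMUSG00000030789, chromosome 7, 128129547 to 128150657), was at 19.7 CPM in young mouse 14C, 26.1 in 18C, 15.9 in 23C and 27.8 in 29C. In old mice it was at 47.1 CPM in 2posI, 43.7 in 3posI and 43.7 in 4posI. All old mice lay above all young mice, and the old values lay close together. The summed dendritic cell markers were likewise higher in each old mouse, with or without 3posI, than in any young one, as given above. Of these 8 markers 5 had a log2 fold change above 0 and 3 below, with a median of 2.18 (1.20 without 3posI), and 2 of 8 (Cd209a and Ccr7) lay above all young mice in every old mouse, against 8.67% of all genes tested. At an unadjusted p under 0.05 there were 6 of 8, against 18.9% of all genes. Clec9a, at most at 0.179 CPM in young mice, passed the filter on low counts only through old mice. Its direction, also part of these counts, was thus fixed by that filter. None was called in edgeR, and DESeq2 called 2 of the 7 with an adjusted p, Cacnb3 and Cd209a, against 9.07% of all genes. Zbtb46, a transcription factor of dendritic cells, was at 1.04 to 2.40 CPM in old mice and at 2.26 to 3.76 CPM in young mice, and Cd209a at 4.49 to 6.85 CPM and at most at 1.48 CPM. The monocyte marker Ly6c2 was at 9.59 to 162 CPM in old mice and at most at 2.85 CPM in young mice. It was 1 of the 4 of 10 monocyte markers that lay above all young mice in every old mouse (8.67% of all genes). The summed monocyte markers of 2posI (526 CPM) and 4posI (279 CPM) lay within the young range of 209.9 to 555 CPM. Fn1, the most abundant of them, was lowest in 4posI, at 110 CPM. Their part in the values of Itgax was not tested. The mean was 22.4 ± 5.55 CPM (SD, n = 4) in young mice and 44.8 ± 1.95 CPM (SD, n = 3) in old mice, 2.01-fold higher. The log2 fold change of 1.00 (SE 0.19, interval 0.56 to 1.44) had an adjusted p of 0.0565 in edgeR. That of DESeq2 was 0.000365, and edgeR gave 0.0296 with no filter on low counts, 0.0490 with its own filter and 0.0498 with effective lengths as an offset. In the other 12 of 16 alternatives it stayed above 0.05. Without 3posI the log2 fold change was 1.02 (adjusted p = 0.0743, edgeR). In TPM the means were 8.32 ± 1.83 (SD, n = 4) and 15.3 ± 0.853 (SD, n = 3), with an exact permutation p of 0.0286, the smallest that 3 against 4 libraries can give.

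Itgal, the α chain of LFA-1 (chromosome 7, 127296260 to 127335138), was at 7.32 CPM in young mouse 14C, 6.42 in 18C, 10.6 in 23C and 8.28 in 29C, and at 8.88 in old mouse 2posI, 37.0 in 3posI and 10.3 in 4posI. Only 3posI left the range of the young mice. The log2 fold change was 1.20 ± 0.47 (SE) in edgeR (adjusted p = 0.219), or 0.23 ± 0.23 (SE) without 3posI.

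Within the β2 family the ratio of α chains in old mice did not overlap with that in young mice. Itgam TPM was 49.6 times Itgax TPM in young mouse 14C, 39.5 times in 18C, 32.6 times in 23C and 39.4 times in 29C, but 11.8 times in old mouse 2posI, 9.03 times in 3posI and 11.4 times in 4posI. The means were 40.3 ± 7.02 (SD, n = 4) in young mice and 10.7 ± 1.48 (SD, n = 3) in old mice. On the CPM scale, which carries no length, they were 37.3 ± 7.66 and 12.4 ± 1.71, again without overlap. Young mouse 23C, low in Itgam, was also the lowest in Itgax, so that its ratio stayed above those of all old mice. Of the summed TPM of Itgam, Itgax, Itgal and Itgad, Itgax made up 2.45 ± 0.397% (SD, n = 4) in young mice and 8.35 ± 0.888% (SD, n = 3) in old mice, and Itgam 96.7 ± 0.750% and 88.7 ± 3.57%. The 4 α chains together came to 0.957 ± 0.201 times the TPM of Itgb2 in young mice (0.666 to 1.11) and to 0.514 ± 0.0496 times in old mice (0.458 to 0.553). On the CPM scale the groups of this last ratio overlapped, at 0.764 to 1.37 in young mice, the lowest being 23C, and at 0.682 to 0.844 in old mice. The shares of Itgam and Itgax did not overlap on that scale either. These ratios were described without a test.

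**Figure D3:**
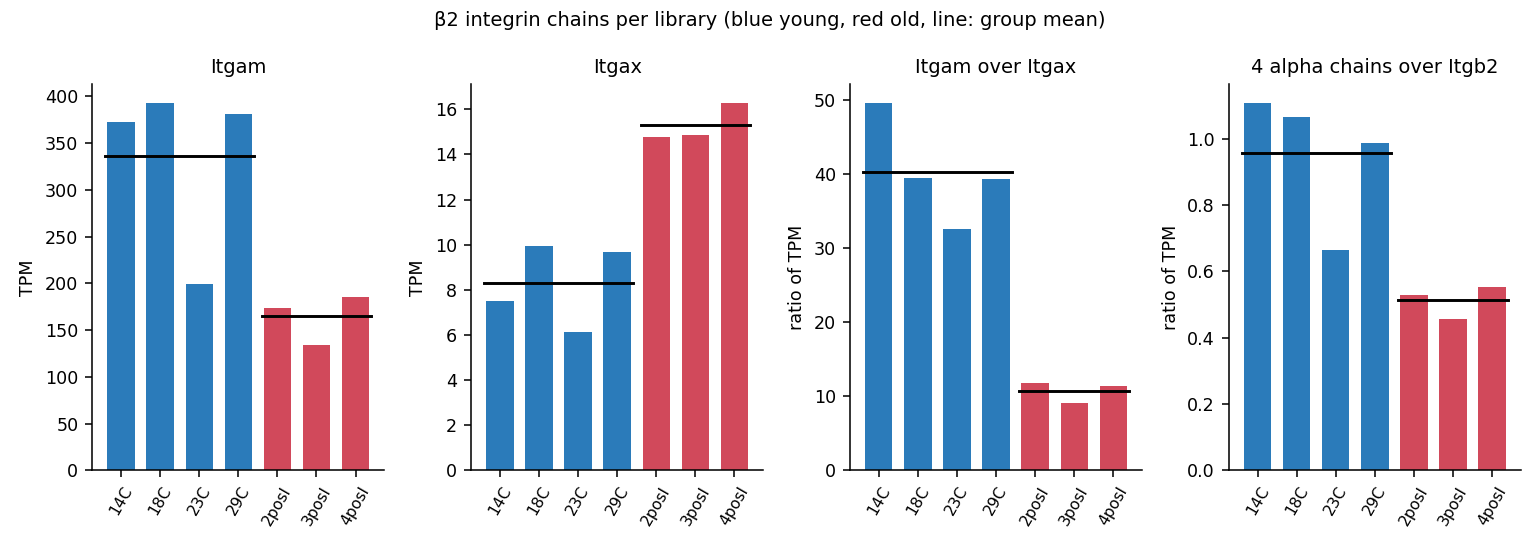
Itgam TPM, Itgax TPM, the ratio of Itgam to Itgax and the ratio of the 4 summed α chains (Itgam, Itgax, Itgal, Itgad) to Itgb2 in each library, young in blue and old in red, with a line at each group mean. The ratio of Itgam to Itgax lies between 32.6 and 49.6 in young mice and between 9.03 and 11.8 in old mice. The ratio to Itgb2 does not overlap in TPM as drawn, but does in CPM.

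Itgam and Itgax are neighbours on the same strand, Itgax starting 11055 bases after the end of Itgam. The 250 bases before the RefSeq start of each (GRCm38.p6, plus strand) are shown because these neighbouring genes had log2 fold changes of opposite sign. Capitals mark GAGGAA or its reverse complement TTCCTC, a core sequence recognised by the myeloid factor PU.1.
Itgam, chr7:128062390-128062639: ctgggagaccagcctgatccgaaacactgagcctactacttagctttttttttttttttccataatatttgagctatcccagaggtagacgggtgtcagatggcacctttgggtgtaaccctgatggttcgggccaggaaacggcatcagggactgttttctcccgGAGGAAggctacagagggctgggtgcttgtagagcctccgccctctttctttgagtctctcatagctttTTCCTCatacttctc
Itgax, chr7:128129300-128129549: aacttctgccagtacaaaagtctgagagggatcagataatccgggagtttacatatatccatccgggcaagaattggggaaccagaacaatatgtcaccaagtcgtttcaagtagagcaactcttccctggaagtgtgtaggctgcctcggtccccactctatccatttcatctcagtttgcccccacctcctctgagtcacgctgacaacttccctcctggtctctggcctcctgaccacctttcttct

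The Itgam window held 2 exact matches, whose first bases lie 84 and 15 bases before the start, and the Itgax window held none. Shorter or inexact forms of the motif, such as GGAA, which the Itgax window also holds, were not searched for. A window was found for 7 of the 10 chains (Itgb2, Itgal and Itga6 being the others), and 3 of these 7 held the motif (Itgam, Itgav and Itgb1), against 23.3% of the 32851 mouse windows of the same length. The letters TATAAA (or TTTATA) were in none of the 7 windows and in 12.4% of all. Such matches describe the letters and not binding.

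Itgb5 (chromosome 16, 33829665 to 33949338), the β chain of the vitronectin receptor αvβ5, was at 1013 CPM in young mouse 14C, 753 in 18C, 999 in 23C and 1194 in 29C, and at 1024 in old mouse 2posI, 628 in 3posI and 1001 in 4posI. The lowest value was that of 3posI, and the other old mice lay within the young range. Its log2 fold change was -0.16 ± 0.23 (SE) in edgeR (interval -0.68 to 0.35, adjusted p = 0.738), and 0.03 without 3posI. Itgav, the α chain that pairs with it (chromosome 2, 83724397 to 83806916), was at 95.6 CPM in young mouse 14C, 78.1 in 18C, 73.0 in 23C and 60.5 in 29C, and at 87.3 in old mouse 2posI, 144 in 3posI and 98.0 in 4posI. Its groups overlapped through 14C and 2posI. The log2 fold change was 0.51 ± 0.21 (SE) in edgeR (adjusted p = 0.230) and 0.27 without 3posI, while mean TPM was 84.2 ± 16.2 (SD, n = 4) in young mice and 91.5 ± 18.6 (SD, n = 3) in old mice. Without 3posI the old mean was 82.3 TPM (n = 2), below that of young mice. Opposite to Itgav lies Gm13684, which received 51 to 200 counts against 2813 to 5625 for Itgav, and in libraries without strand the reads of both cannot be told apart where they overlap.

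Itgb1 (chromosome 8, 128685654 to 128733200), the β chain shared by most matrix-binding integrins, was at 319 CPM in young mouse 14C, 323 in 18C, 387 in 23C and 329 in 29C, and at 331 in old mouse 2posI, 309.9 in 3posI and 299 in 4posI. The groups overlapped, and its SD over all libraries was the smallest of the 10 chains, 0.12 on the log2 CPM scale. The log2 fold change was -0.12 ± 0.13 (SE) in edgeR (interval -0.40 to 0.17, adjusted p = 0.657). In TPM the old mice (104 to 113) lay just below the young mice (114 to 145).

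Itga6, the laminin-binding α chain (chromosome 2, 71745616 to 71858416), was at 172 CPM in young mouse 14C, 156 in 18C, 133 in 23C and 172 in 29C. In old mice it was at 234 CPM in 2posI, 204 in 3posI and 217 in 4posI. All old mice lay above all young mice. The mean was 158 ± 18.2 CPM (SD, n = 4) in young mice and 218 ± 15.1 CPM (SD, n = 3) in old mice, a log2 fold change of 0.46 ± 0.13 (SE) in edgeR (interval 0.16 to 0.76, adjusted p = 0.127), 0.51 without 3posI and 0.47 in DESeq2 (adjusted p = 0.0174). The TPM of the groups did not overlap either, as for Itgax (6.26% of all genes had old TPM above all young TPM), at 66.3 ± 7.47 (SD, n = 4) against 92.0 ± 8.70 (SD, n = 3), with an exact permutation p of 0.0286. Against its partner, Itga6 TPM was 0.538 ± 0.106 times Itgb1 TPM in young mice (0.382 to 0.609) and 0.848 ± 0.0497 times in old mice (0.791 to 0.882), and in CPM the groups did not overlap either.

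Itga4, the α chain of the receptors for Vcam1 and Madcam1 (chromosome 2, 79255426 to 79333123), was at 7.25 CPM in young mouse 14C, 2.86 in 18C, 8.47 in 23C and 2.58 in 29C, and at 8.37 in old mouse 2posI, 37.4 in 3posI and 5.46 in 4posI. It was high in 3posI alone. The log2 fold change was 1.69 ± 0.69 (SE) in edgeR (adjusted p = 0.233), or 0.38 ± 0.50 (SE) without 3posI. Itgb7, a β chain known from lymphocytes that home to the gut (chromosome 15, 102215995 to 102231944), was at 2.90 CPM in young mouse 14C, 1.03 in 18C, 1.49 in 23C and 0.538 in 29C. In old mice it was at 1.70 CPM in 2posI, 48.6 in 3posI and 7.04 in 4posI. 2posI lay among the young mice and the other old mice lay above them. Its log2 fold change of 3.68 ± 1.01 (SE) in edgeR (interval 1.38 to 5.98, adjusted p = 0.122; 0.0197 in DESeq2) was the largest of the 10, and came to 1.56 ± 0.68 (SE) in edgeR (interval -0.01 to 3.12, adjusted p = 0.286) without 3posI. The summed monocyte, border macrophage, dendritic cell and T cell markers were also highest in 3posI, as given above, and their part in the values of Itgb7, Itga4, Itgal and Itgav was not tested.

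The genes with the pattern most like these variable chains were sought among 12166 genes with a mean of at least 1 CPM, as the smallest root mean square difference of centred log2 CPM over the 7 libraries. For Itgb7 they were Pira2 (0.586), Cd24a (0.610) and Vegfa (0.615). For Itga4 they were Gdf3 (0.154), Cpne2 (0.198) and Tnfsf13 (0.204), and for Itgal Ugt1a6a (0.0754), the Src-family kinase Fgr (0.138) and Prdx6 (0.205). Each of these 9 genes was highest in 3posI, such as Cd24a at 111 CPM against 2.28 to 15.8 CPM in the other libraries. The search matched the pattern over the same 7 libraries, so these peaks were set by the selection. For Itgax, added to this search after its values were seen, the nearest genes were Usf2 (0.142), Tmem259 (0.143) and Gm13568 (0.152). Usf2, a transcription factor gene, was at 16.0 to 26.8 CPM in young mice and at 41.9 to 50.9 CPM in old mice, a gap likewise set by the selection.

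**Figure D4:**
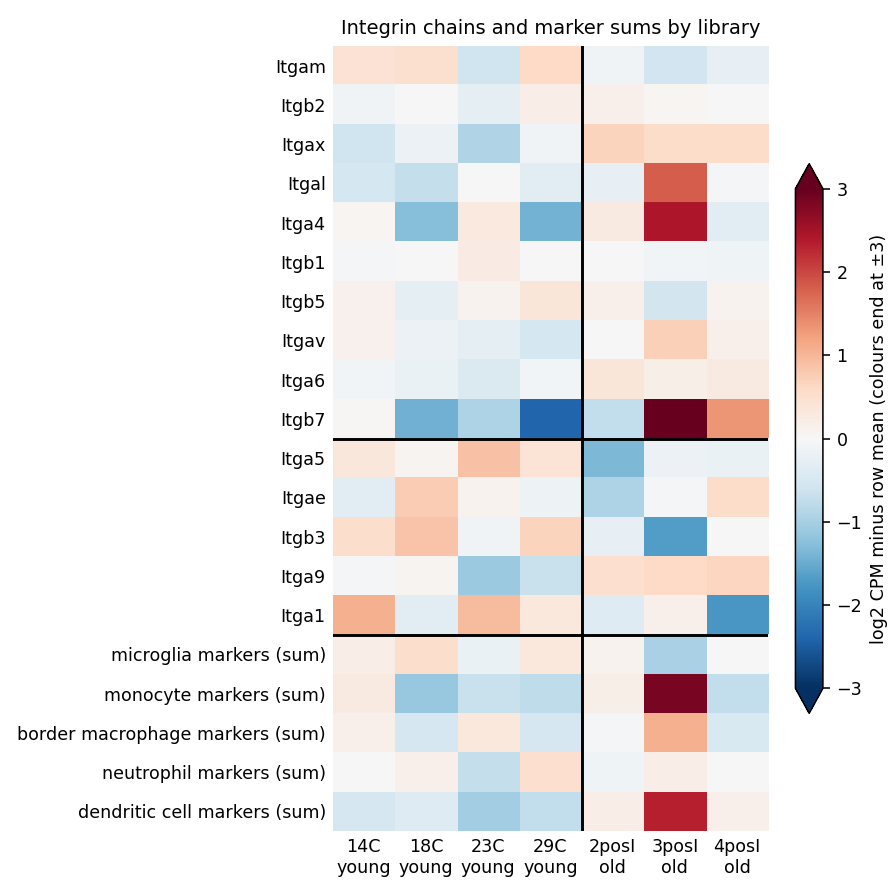
Log2 CPM of each gene or marker sum minus its mean over the 7 libraries, for the 10 integrin chains (top), the other integrin chains with a mean of at least 1 CPM (middle) and 5 marker lists (bottom). Itgb7, Itga4 and Itgal are red in 3posI, as are monocyte and dendritic cell markers, whereas Itgax, Itga6 and Itga9 are red in all 3 old libraries. Dendritic cell markers are also above 0 in the other old libraries, at 0.19 in 2posI and 0.14 in 4posI, and Itgb7 is at 1.32 in 4posI. Colours end at 3, and Itgb7 reached 4.11 in 3posI.

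RSEM also assigns each gene an effective length in each library, which moves when reads fit shorter or longer transcripts of the gene. These lengths did not overlap between the ages for 5 of the 10 chains, against 19.4% of the 11686 tested genes whose length varied by more than 1 base. Itgam was assigned 3221 to 3526 bases in young mice and 4332 to 4503 bases in old mice. A shift at least as large was seen for 8.69% of the varying genes. Its 6 annotated transcripts run from 338 to 4682 bases. The length of Itga4 went from 4132 to 5319 bases in young mice to 5917 to 7424 bases in old mice, and that of Itgav from 1193 to 1350 bases to 1468 to 1660 bases. For Itgb2 it went from 2829 to 2858 bases to 2879 to 2895 bases. Itga6 was the one of the 5 with shorter lengths in old mice, 3060 to 3133 bases against 3212 to 3399. Whether different transcripts were present or reads covered the same transcripts unevenly was not tested.

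**Figure D5:**
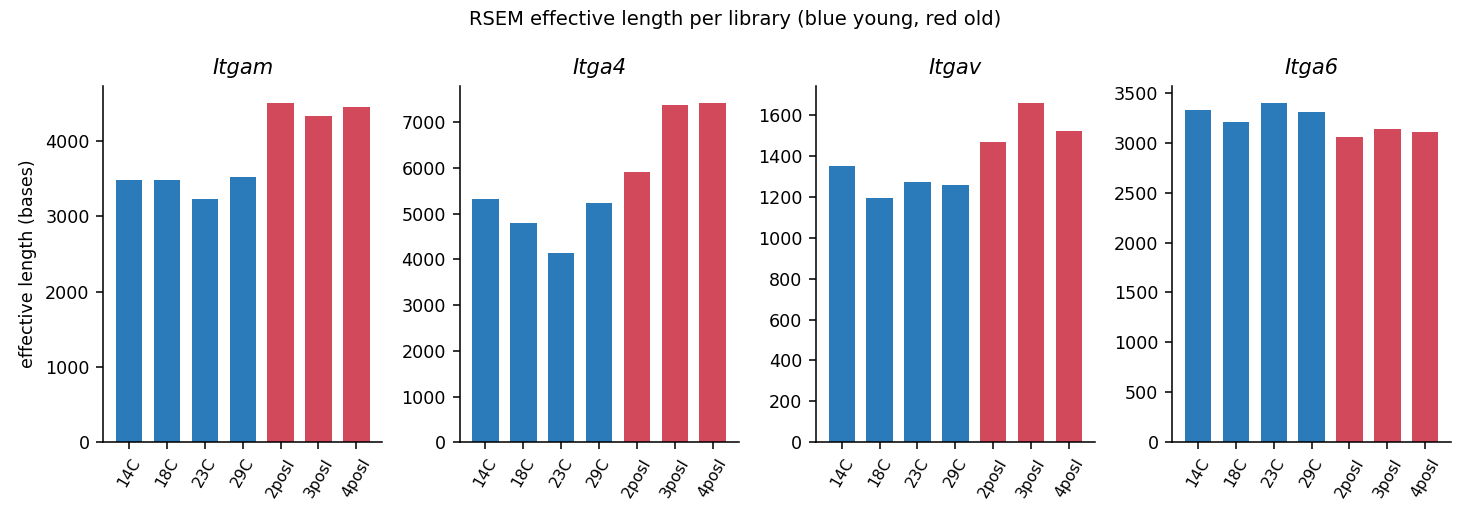
Effective length in bases that RSEM assigned to Itgam, Itga4, Itgav and Itga6 in each library, young in blue and old in red. Bars of old mice are taller than all bars of young mice for Itgam, Itga4 and Itgav, and shorter for Itga6.

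Of the 16 other integrin chains, 14 passed the filter on low counts (Itga2 and Itgb6 did not), 10 of them with a log2 fold change below 0, and none was called in edgeR. Their median was -0.82, against -0.01 over all genes tested, and their groups did not overlap in 3 of 14, against 17.7% of all genes. At an unadjusted p under 0.05 there were 4 of 14, against 18.9% of all genes, and DESeq2 called 2 of the 13 with an adjusted p, Itga5 and Itga9, against 9.07% of all genes. Of the 14, 9 were under 1 CPM in both age groups on average. Itga11, at most at 0.086 CPM in old mice, passed the filter on low counts only through young mice. Its direction, also part of these counts, was thus fixed by that filter. Itga8 and Itgad reached at most 0.256 and 0.216 CPM in old mice, close to that filter. They too were part of these counts, Itga8 with an unadjusted p under 0.05 in edgeR and Itgad without overlap. Itga9, which binds Vcam1 and tenascin, was at 9.68, 10.8, 4.65 and 6.32 CPM in young mice 14C, 18C, 23C and 29C and at 14.3, 15.4 and 15.8 CPM in old mice 2posI, 3posI and 4posI. Its log2 fold change was 0.95 ± 0.28 (SE) in edgeR (adjusted p = 0.132). Itga5, the α chain of the fibronectin receptor, was at 175, 145, 252 and 181 CPM in young mice and at 54.0, 122 and 120 CPM in old mice, in the same order. All old mice lay below all young mice, and the log2 fold change was -0.93 ± 0.30 (SE) in edgeR (adjusted p = 0.163). Itgb3, the β chain of the platelet fibrinogen receptor and of αvβ3, had a log2 fold change of -1.02 ± 0.38 (SE) in edgeR (adjusted p = 0.203), with overlap.

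Of 20 genes for integrin ligands all were tested, with 10 above and 10 below 0 and none called in edgeR. Cdh1 was at most at 0.137 CPM in young mice and passed the filter on low counts only through 3posI. Icam4 was at most at 0.209 CPM in old mice and passed it only through young mice. The directions of both, part of the counts here, were thus fixed by that filter. Both also had an unadjusted p under 0.05 in edgeR. The median log2 fold change was 0.05. Without 3posI it was -0.04, but over 19 genes, since Cdh1 did not pass the filter there. The 2 medians thus cover different genes. With each library left out it ran from -0.25 (without 2posI) to 0.08 (without 4posI). At an unadjusted p under 0.05 there were 7 of 20, and 4 of 20 did not overlap, against 18.9% and 17.7% of all genes. DESeq2 called 3 of the 19 with an adjusted p (Icam1, Tgfb1 and Lama5), against 9.07% of all genes. Icam1, the ligand of LFA-1 and complement receptor 3, was at 568, 537, 447 and 519.6 CPM in young mice 14C, 18C, 23C and 29C and at 265, 229 and 372 CPM in old mice 2posI, 3posI and 4posI. The groups did not overlap, and the log2 fold change was -0.84 ± 0.19 (SE) in edgeR (adjusted p = 0.0801). Tgfb1, whose latent protein αv integrins can activate, was at 19.5 to 36.9 CPM in young mice and at 10.0 to 15.5 CPM in old mice, and its log2 fold change was -1.15 ± 0.26 (SE) in edgeR (adjusted p = 0.0778). Lama5, a laminin chain, had one of -1.21 ± 0.35 (SE) in edgeR (adjusted p = 0.131) at a mean of 1.46 CPM in young mice and 0.626 CPM in old mice.

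Among 22 genes for integrin activation 21 were tested, since Fermt1 had no count in any library. The log2 fold change was above 0 in 11 and below 0 in 10, the median was 0.13, and none was called in edgeR. That median was 0.07 without 3posI, over 20 genes, since Skap1 did not pass the filter on low counts there. It was 0.08 without 4posI and -0.02 in limma-voom. The p before adjustment was under 0.05 for 4 of 21, and 2 of 21 did not overlap, against 18.9% and 17.7% of all genes. DESeq2 called 1 of the 20 with an adjusted p, Sipa1, against 9.07% of all genes. Sipa1, which switches off the small GTPase Rap1, was at 304, 341, 228 and 270.2 CPM in young mice 14C, 18C, 23C and 29C and at 137, 128 and 175 CPM in old mice 2posI, 3posI and 4posI. All old mice lay below all young ones, with a log2 fold change of -0.96 ± 0.18 (SE) in edgeR (adjusted p = 0.0536; 6.68e-05 in DESeq2). The adaptor Skap1 had a log2 fold change of 3.18 ± 1.12 (SE) in edgeR (adjusted p = 0.183), at no more than 0.332 CPM in any library. It was at most at 0.078 CPM in young mice and passed the filter on low counts only through old mice. Its direction, also part of the counts above, was thus fixed by that filter. Rapgef3, which loads Rap1 with GTP, had a log2 fold change of -1.70 ± 0.63 (SE) in edgeR (adjusted p = 0.199). Tln1 (talin) and Fermt3 (kindlin 3), which bind β chains from inside the cell, had log2 fold changes of 0.13 ± 0.13 (SE) and -0.02 ± 0.12 (SE).

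All 26 genes of adhesion signalling were tested, 11 with a log2 fold change above 0 and 15 below, with a median of -0.03 and none called in edgeR. An unadjusted p under 0.05 was found for 7 of 26, and 4 of 26 did not overlap, against 18.9% and 17.7% of all genes. DESeq2 called 1 of 26, Parvb, against 9.07% of all genes. Parvb, a parvin that links integrins to actin, was at 5.87, 3.71, 6.47 and 5.33 CPM in young mice and at 12.6, 16.6 and 9.44 CPM in old mice, in the same order. All old mice lay above all young mice, and the log2 fold change was 1.27 ± 0.25 (SE) in edgeR (adjusted p = 0.0618; 0.000482 in DESeq2). Vasp, which extends actin filaments, had a log2 fold change of -0.53 ± 0.16 (SE) in edgeR (adjusted p = 0.145), and the kinase Ptk2b one of -0.32 ± 0.11 (SE) in edgeR (adjusted p = 0.185). For both, the CPM of old mice lay below that of all young mice.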

How the data were processed

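RNA of sorted Bodipy+ microglia was amplified by Smart-seq2 and sequenced without strand, per the labels, and no molecular identifiers were named. The authors used skewer for trimming, STAR for alignment against GRCm38 and RSEM with GENCODE m15 for quantification; FastQC 0.11.5 and limma are named in the submitters' processing notes. Each deposited file gives expected counts per gene, TPM and FPKM (both scaled per length and library by the authors), and gene lengths.

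Expected counts were rounded. Genes with a count above 10 in at least 1 library and an autosomal position, as in the study's methods, were kept (17559 of 50686), and 614 genes on X, Y or the mitochondrial genome were left out. A gene near 0 counts in either age group could pass this filter through the other group alone, which set its direction in advance. Old was compared with young by edgeR 4.0.16 quasi-likelihood (R 4.3.3) with TMM factors, with no covariate, and adjusted over all genes tested; the study used limma-voom. The biological coefficient of variation was 37.2%. Alternatives were limma 3.58.1 (voom), DESeq2 1.42.0, other scalings, filters and leaving out each library. TPM of single genes was tested by a two-sided exact permutation of the difference in means. The test code was tested on simulated data. Positions are those of GENCODE vM21 (50462 of 50686 identifiers matched) and promoter sequences those of RefSeq. The 10 chains and all gene lists were chosen with earlier results of these data known. Named genes were all 10 chains, and from the other lists every called gene and the 3 with the smallest p, besides each marker list's most abundant gene and genes at 0. 1 listed microglia marker is not reported here and was left out of the sums. Tln1, Fermt3, Ccr2, Ly6c2, Ly6c1, Pecam1, Ms4a4c, Plac8, Ly6g, S100a8, S100a9, Retnlg, Camp, Ngp, Mmp8, Mmp9, Cxcr2, Cd209a, Zbtb46, Cacnb3, Mobp, Fcrls, the Cd3 genes, Cd28, Cd8a, Cd8b1, Lck, Cd2, Trac, P2ry12, Tmem119 and Sall1 were added after their values were seen. The labels give no batch, and the extraction kit differs between labels and methods. 1 library per mouse means that p-values measure the spread between mice.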

Additional observations from a re-analysis of the deposited data

Results flagged for a closer look

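Dixon's test of the 4 young libraries was run on 42 values, of which chance alone would flag about 2.1. It set young mouse 23C apart 4 times, the gap to the nearest library divided by the range being above the 95% critical value. For Itgam CPM the ratio was 0.833, 23C lying at 455 and the others at 931 to 1027. For Itgam TPM it was 0.897, with 199 against 373 to 393. For Itgb1 CPM it was 0.844, 23C lying highest at 387 against 319 to 329. For the share of Itgal among the β2 α chains it was 0.875, with 1.39% in 23C against 0.517 to 0.625%. Of the young mice, 23C also had the lowest summed microglia markers and the highest summed endothelial and pericyte markers. Their part in these flags was not tested. Groups of 3, and so the old libraries, were not tested.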

How the results depend on the processing

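No paired analysis was possible because the labels number no replicates across the ages. Of the genes tested, edgeR called 141. DESeq2 called 1399, and edgeR 213 with effective lengths as an offset and 288 without a filter on low counts. With each library left out in turn the number was 1 to 159, and it was 159 without 3posI, 85 without 4posI, 14 without 23C, 2 without 29C and 1 without each of 14C, 18C and 2posI. None of the 10 integrin chains was called in any fit that left out a library. DESeq2 called 3 of them, and edgeR 1 (Itgax) with effective lengths, without a filter and with its own filter. Itgax was at 1.01 in DESeq2 (adjusted p = 0.000365), 0.98 with effective lengths (0.0498), 0.98 without a filter (0.0296) and 1.01 with the edgeR filter (0.0490). In DESeq2 Itga6 was at 0.47 (adjusted p = 0.0174) and Itgb7 at 3.69 (0.0197). Leaving out each library gave 0.87 to 1.12 for Itgax, 0.39 to 0.51 for Itga6, 1.56 to 4.22 for Itgb7, -0.79 to -0.46 for Itgam and -0.28 to 0.03 for Itgb5, which changed sign without 3posI (0.033). The Itgb2 difference, about 0 in TPM, was 57.2 in CPM and 0.00415 in log2(TPM + 1). Of the other lists DESeq2 called 2 of 13 other integrin chains, 3 of 19 ligands, 1 of 20 activation genes and 1 of 26 signalling genes with an adjusted p (9.07% of all such genes), and limma-voom 1 of 21 activation genes (143 genes in all). With each library left out edgeR called 0 to 1 of the other integrin chains, the 1 being Itga3 without 3posI. The causes were not tested.

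The median of these other integrin chains was -0.94 to -0.53 with each library left out. The scaling of the libraries moved the median of all genes by less than 0.1 in every fit. The interval of the Itgam difference, -1.22 to 0.05, includes 0. Low chains such as Itga4 and Itgal rested on 120 to 541 counts per library outside 3posI, and Itgb7 on 25 to 326.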

Other observations

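Markers of neutrophils and of cells other than myeloid cells gave these values. Of 8 endothelial genes, led by Cldn5, 7 had a log2 fold change below 0, and 3 of 8 lay below all young mice in every old mouse (9.07% of all genes). DESeq2 called 3 of 8, Ly6c1, Pecam1 and Slco1a4 (9.07% of the genes with an adjusted p). Slco1a4, a transporter of brain vessels, was the 1 of 8 that passed the test in edgeR (0.803% of all genes, 0.233% lower in old mice; adjusted p = 0.0280) at a log2 fold change of -1.66 ± 0.23 (SE), going from 6.02 to 9.87 CPM in young mice to 2.48 to 2.80 CPM in old mice. The summed endothelial markers overlapped, at 74.7 to 135 CPM in young mice and 57.9 to 78.7 CPM in old mice. Pericyte markers (5 genes, led by Cspg4), astrocyte markers (6 genes, led by Slc1a3), oligodendrocyte markers (6 genes, led by Cnp), platelet markers (6 genes, led by Gp9) and B cell markers (7 genes, led by Ighm, with Pax5 at 0 in every library) had summed levels that overlapped between the ages, and no gene of these 5 lists was called in edgeR. At an unadjusted p under 0.05 there were 2 of 5 pericyte and 1 of 3 tested oligodendrocyte genes, and none of the 6 astrocyte, 5 tested platelet and 4 tested B cell genes (18.9% of all genes). DESeq2 called 1 of these, the oligodendrocyte gene Mobp, at 0.805 to 1.88 CPM in young mice and 1.19 to 7.63 CPM in old mice. The summed NK cell markers (7 genes, led by Klrb1c, with Klra8 at 0 in every library) stayed at or under 0.879 CPM. Of the 10 neutrophil markers, 9 had a log2 fold change above 0 with a median of 1.16, and without 3posI 8 of 10 with a median of 0.56. None was called in edgeR, nor in DESeq2 among the 7 with an adjusted p, 2 of 10 had an unadjusted p under 0.05 (18.9% of all genes), and 1 of 10 lay above all young mice in every old mouse (8.67% of all genes).

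Among T cell markers, Cd3e, Cd3d, Cd3g, Cd8a, Cd8b1, Cd2 and Trac were at most at 0.0860 CPM in young mice. They passed the filter on low counts only through old mice. The tallies, medians and shares that follow were thus largely fixed by that filter and show no difference beyond it. T cell markers were 10 of 10 with a log2 fold change above 0 and a median of 3.67, and 9 of 10 with a median of 3.26 without 3posI. Old mice lay above all young mice for 5 of 10 (8.67% of all genes tested), and 8 of 10 had an unadjusted p under 0.05 (18.9% of all genes). None was called in edgeR, and DESeq2 called 3 of the 5 to which it gave an adjusted p (9.07% of all such genes). Their most abundant gene Cd4 overlapped between the ages at 1.31 to 10.2 CPM in young mice and 1.23 to 10.3 CPM in old mice. Monocyte markers were 10 of 10 above 0 with a median log2 fold change of 3.69. Old mice lay above all young mice for 4 of 10 (8.67% of all genes), and 7 of 10 had an unadjusted p under 0.05 (18.9%). None was called in edgeR, and DESeq2 called 3 of the 5 with an adjusted p, Ly6c2, Ms4a4c and Plac8 (9.07%). Without 3posI 8 of 10 were above 0 with a median of 1.14, and edgeR called 1 of 10, Ly6c2, against 0.915% of all genes.

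Of the 10 microglia markers tested, 2 had a log2 fold change above 0 with a median of -0.22, and without 3posI 6 of 10 with a median of 0.12. None was called in edgeR, 1 of 10 had an unadjusted p under 0.05 (18.9% of all genes), and DESeq2 called 1 of 10, Fcrls (9.07%), at 3477 to 4212 CPM in young mice and 1550.0 to 3090.0 CPM in old mice. Of the 8 border macrophage markers 7 were above 0 with a median of 0.93, and without 3posI 5 of 8 with a median of 0.24. None was called in edgeR or DESeq2, and 1 of 8 had an unadjusted p under 0.05 in edgeR (18.9% of all genes). The groups did not overlap for 0 of 8, against 17.7% of all genes.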
